A study of Homo sapiens with 15 samples.

Results

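Methylation was followed in 1315 windows of 100 kb that tile chromosome 18 and chromosome 19, the former poor and the latter rich in genes, out of 28471 windows over chromosomes 1 to 22 and X. Windows were laid from position 1 of each chromosome up to the last window that held a CpG. They were kept when they held at least 5 CpGs and at least 50 reads in every library, which left 755 of 803 windows of chromosome 18 and 560 of 587 windows of chromosome 19. The methylation level (mC) of a window is its methylated reads over all its reads at CpGs, in percent. In the hg38 reference chromosome 18 is 80373285 bp long and chromosome 19 58617616 bp, so their lengths are only loosely alike. The contrast in gene content does hold. GENCODE release 44 places 266 protein-coding genes on chromosome 18 and 1476 on chromosome 19, which is 3.31 and 25.1 per Mb, or rank 21 and rank 1 of the 22 autosomes.

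The data are whole-genome bisulfite sequencing of HCT116, a human colorectal carcinoma line, carrying a doxycycline-inducible short hairpin RNA against UHRF1 (shUHRF1) or against DNMT1 (shDNMT1). Each of 5 populations was sequenced at Baseline (day 14 with no doxycycline), at Knockdown (day 14 in 10 ng/mL doxycycline) and at Recovery (day 28, after 14 days in doxycycline and 14 days out of it), which gave 15 libraries. The shUHRF1 populations were clones Cl.3, Cl.6 and Cl.9, isolated by dilution so that each is 1 clone, and the shDNMT1 populations were bulk cultures R1 and R2. Values of single populations are given in the order just named unless stated. The bulk populations also stand in a count table of their own, as does Cl.9, so neither kind of culture nor table can be told apart from the shRNA. Cl.9 was picked by the study for further work because it lost the most methylation. No Recovery library had a Baseline of its own day, and UHRF1 and DNMT1 protein levels were not analysed here.

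Human chromosomes differ in how they sit in the nucleus. Chromosome 19 is crowded with housekeeping genes, CpG islands and clusters of zinc finger genes and lies towards the centre, whereas chromosome 18 is dominated by gene-poor, late replicating chromatin that contacts the nuclear lamina. DNMT1 copies methylation to the new strand after replication and UHRF1 brings it to half-methylated CpGs. Long stretches in which this copying stays incomplete are called partially methylated domains (PMDs), and the well methylated remainder is called highly methylated domains (HMDs).

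The chromosomes also differ in how CpGs are spaced, and 4 sites with high Baseline mC are shown as well covered examples of an isolated CpG and as the most crowded CpG of each chromosome among those that qualified. All lie in windows that were mainly HMD in each population at Baseline. The sequence is hg38, plus strand, with CpGs in capitals.
chr18:60014372-60014401 (isolated): cttttaaagcttatCGatttgttctaattc
chr18:74852196-74852225 (dense): caCGcaCGcaCGcaCGCGcaCGCGCGCGCG
chr19:40088968-40088997 (isolated): gtggagagtagaatCGtatttacagatctg
chr19:5035874-5035903 (dense): tgtgtgtgCGCGCGCGCGCGCGcctgCGCG
The isolated CpG of chromosome 18 is intergenic, with the nearest CpG 248 bp away, and that of chromosome 19 lies in ZNF780A, a zinc finger gene, and in an overlapping lncRNA gene, outside exons of both and 229 bp from the nearest CpG. The dense site of chromosome 18 lies in ZNF407 and that of chromosome 19 in KDM4B, a histone demethylase gene, both outside exons. The measured CpG, which starts at base 15 of each run, has 9 further CpGs within 14 bp in ZNF407 and 8 in KDM4B. Such CG repeats are hard to align, so their calls are less certain.

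At the isolated site of chromosome 18 mC was 95% to 100% at Baseline, and at Knockdown it was 91.9%, 77.1% and 56.3% in the clones, against 69.0% and 46.9% in R1 and R2. At the isolated site of chromosome 19 it was 93.8% to 100% at Baseline and 100%, 71.7%, 67.3%, 46.5% and 48.2% at Knockdown, in the same order. Cl.3 lost least at both. The dense site in ZNF407 read 100%, 100%, 92.9%, 86.7% and 73.7% at Knockdown, and the dense site in KDM4B 100%, 83.3%, 100%, 57.9% and 80%. Isolated sites had 31 to 60 reads per library, ZNF407 11 to 34 and KDM4B 6 to 19. The Wilson 95% interval of the R2 value was 33.7% to 60.6% at the isolated site of chromosome 18 and 51.2% to 88.2% in ZNF407, so single sites give only a coarse value. These intervals cover counting error only.

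Spacing was then counted over whole chromosomes. Chromosome 18 carried 756014 CpGs, 55.4% of them with the nearest CpG 20 bp or more away (low density) and 13.4% solo-WCGW, meaning that A or T flanks the CpG on either side and no other CpG is within 35 bp. Chromosome 19 carried 1105620 CpGs, 37.9% of low density and 5.47% solo-WCGW. The median distance to the nearest CpG was 24 bp on chromosome 18 and 12 bp on chromosome 19. A window held 913 CpGs on average on chromosome 18 and 1890 on chromosome 19, where the latter was the highest value of the 22 autosomes.

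Reads over the members ranged from 7799541 to 14456132 per library on chromosome 18 and from 10605406 to 21593186 on chromosome 19. The Wilson 95% interval of a chromosome's mC was at most 0.0349 points on either side. This was far below the spread between the clones. On chromosome 18 the SD between R1 and R2 was no larger than it at 2 stages, at 0.0236 points at Baseline and 0.00441 points at Recovery. At Knockdown that SD was 0.437 points, well above the interval. Depth per CpG relative to all autosomes was 0.951 to 1.00 on chromosome 18 and 0.837 to 0.988 on chromosome 19. In R1 and R2 the chromosome 19 value was 0.872 at Baseline and 0.949 and 0.988 at Knockdown, so depth moved together with the stage in the shDNMT1 populations. Its part in the results on chromosome 19 was not tested.

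The first comparison asked whether the chromosomes differed in level at each stage. At Baseline the windows of chromosome 18 were methylated at 66.8%, 68.8% and 64.0% in the clones and at 66.1% in both bulk populations. Chromosome 19 stood at 74.3%, 75.8%, 70.1%, 72.8% and 72.5%. Each population was higher on chromosome 19, and the 5 values of one chromosome did not overlap those of the other. The mean difference was 6.77 ± 0.523 points (SD, n = 5; exact two-sided sign-flip permutation p = 0.0625, the smallest that 5 populations allow). Among the 22 autosomes chromosome 18 ranked 21 in Baseline mC and chromosome 19 ranked 12, so chromosome 19 was not high among autosomes.

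At Knockdown chromosome 18 was at 54.8%, 49.7% and 36.6% in the clones and at 36.2% and 35.6% in R1 and R2. Chromosome 19 was at 62.1%, 56.7% and 42.5% with shUHRF1 and at 38.3% and 37.2% with shDNMT1. The difference stayed at 7.34, 6.97 and 5.87 points in the clones and was 2.06 and 1.55 points in the bulk populations. Chromosome 19 was thus still higher in each population, and the difference was 4.76 ± 2.76 points over all 5 (exact sign-flip permutation p = 0.0625).

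At Recovery chromosome 18 reached 59.4%, 57.8%, 45.0%, 65.5% and 65.5%, and chromosome 19 67.4%, 64.9%, 52.1%, 71.8% and 71.6%, in the order Cl.3, Cl.6, Cl.9, R1 and R2. The difference was 6.91 ± 0.763 points (n = 5, exact sign-flip permutation p = 0.0625).

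**Figure D1:**
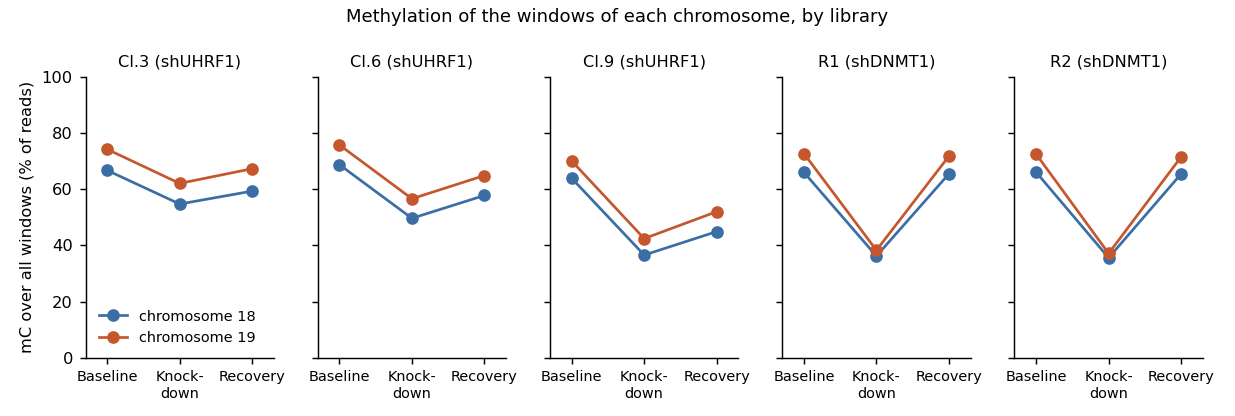
Methylation level over all kept windows (y axis, percent of reads at CpGs) of chromosome 18 (blue, 755 windows) and chromosome 19 (orange, 560 windows) at the 3 stages (x axis), with 1 panel per population and no error bar because each point is 1 library. The lines run nearly parallel in the clones and come together at Knockdown in R1 and R2, where they stand 2.06 and 1.55 points apart.

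The second comparison asked which chromosome lost more at Knockdown. With shUHRF1 mC changed by -12.0, -19.1 and -27.4 points on chromosome 18 and by -12.2, -19.2 and -27.7 points on chromosome 19. The clones ranged widely among themselves, but within a clone the chromosomes differed by -0.178 ± 0.121 points (chromosome 19 minus 18, SD, n = 3; exact sign-flip permutation p = 0.25, the smallest that 3 populations allow). This value was -0.617 ± 0.504 points with equal weight per window and -0.489 ± 0.322 points from CpGs with 5 or more reads in all libraries. Over all members without Cl.9 it was -0.115 points. With shDNMT1 mC changed by -29.8 and -30.5 points on chromosome 18 and by -34.5 and -35.4 points on chromosome 19. This difference was -4.76 ± 0.188 points (SD, n = 2; exact sign-flip permutation p = 0.5, the smallest that 2 allow).

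The chromosome difference was thus 4.58 points further from 0 with shDNMT1 than with shUHRF1. Both bulk populations lay outside the range of the clones, which gives p = 0.2 in an exact two-sided permutation of 3 against 2 populations, the smallest possible. No exact permutation over these populations can reach a p under 0.05.

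Relative to its own Baseline, chromosome 18 lost 17.96%, 27.8% and 42.8% of its methylation in the clones, and chromosome 19 lost 16.4%, 25.3% and 39.4%. Chromosome 18 lost the larger share in each clone, by 2.47 ± 0.871 points on average. In the bulk populations chromosome 18 lost 45.2% and 46.1% and chromosome 19 lost 47.4% and 48.8%, so that chromosome 19 lost the larger share, by 2.43 ± 0.314 points. Averaging windows with equal weight in place of pooling reads brought the shDNMT1 value down to 1.09 points. Among the 22 autosomes chromosome 18 ranked 1 in relative loss with shUHRF1 and chromosome 19 ranked 15, and with shDNMT1 chromosome 19 ranked 1 and chromosome 18 ranked 13. The top ranks were near ties. Chromosome 20 ranked 2 with either shRNA, at 29.43% against 29.49% on chromosome 18 with shUHRF1. With shDNMT1 it stood at 47.71% against 48.07% on chromosome 19.

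The third comparison asked how much of the loss was regained 14 days after doxycycline was withdrawn. The regained share is the rise from Knockdown to Recovery over the fall from Baseline to Knockdown. It was 38.4%, 42.7% and 30.5% on chromosome 18 and 43.2%, 43.2% and 34.7% on chromosome 19 in the clones. Chromosome 19 regained more in each clone, by 3.16 ± 2.31 points (n = 3, exact sign-flip permutation p = 0.25), although the difference in Cl.6 was only 0.525 points. In this share chromosome 19 ranked 16 and chromosome 18 ranked 21 of the 22 autosomes with shUHRF1, so both were low. With shDNMT1 the regained share was 98.2% and 98.1% on chromosome 18 and 97.3% in both on chromosome 19. That difference was -0.834 ± 0.0747 points with pooled reads and -0.0821 ± 0.164 points when windows had equal weight, so it was no larger than its spread under the latter.

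Single windows showed how unlike the chromosomes are in shape. On chromosome 18 window mC at Baseline formed a low and a high group. Between 37.0% and 40.8% of its windows were under 50% in a population and between 29.1% and 35.9% were at 80% or more. On chromosome 19 between 12.1% and 17.5% were under 50% and between 20.7% and 42.1% at 80% or more. The interquartile range was 40.6% to 83.6% on chromosome 18 and 63.6% to 82.9% on chromosome 19 in Cl.3. The upper quartiles were thus close, and the chromosomes parted at the lower quartile. At Knockdown 49.3%, 54.6%, 73.1%, 89.4% and 91.8% of chromosome 18 windows and 23.2%, 30.7%, 76.1%, 97.0% and 98.4% of chromosome 19 windows were under 50%. Chromosome 18 thus had the larger share in Cl.3 and Cl.6 and chromosome 19 in the other populations.

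**Figure D2:**
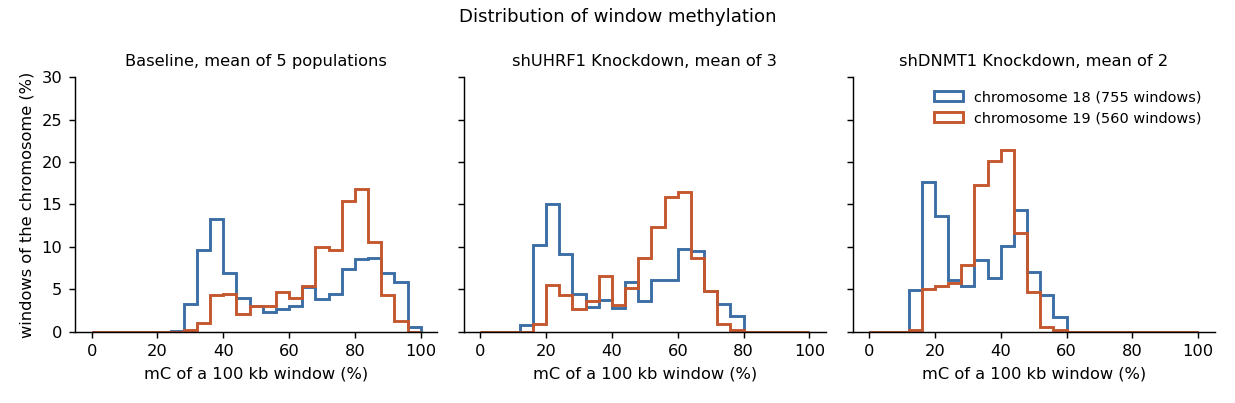
Share of each chromosome's windows (y axis, percent) by window mC (x axis, percent, bins of 4 points) at Baseline and at Knockdown with either shRNA, as the mean over the populations named above each panel. Chromosome 18 (blue, 755 windows) has a low and a high peak in each panel, whereas chromosome 19 (orange, 560 windows) has most windows in 1 high peak with a low shoulder.

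Change at Knockdown followed the Baseline level of a window. Across windows Spearman's rho between Baseline mC and the mean change was -0.738 on chromosome 18 (755 windows) and -0.541 on chromosome 19 (560 windows) with shUHRF1, and -0.949 and -0.876 with shDNMT1. The same Baseline libraries enter both axes and neighbouring windows are not independent, so these are descriptions only. At a Baseline under 50% the mean change was -15.1 points in 292 windows of chromosome 18 and -15.8 points in 74 windows of chromosome 19 with shUHRF1, and -19.8 and -21.0 points with shDNMT1. At 80% or more it was -21.7 points in 230 and -21.0 points in 184 windows with shUHRF1, and -39.3 and -40.0 points with shDNMT1. At 50% to under 70% it was -20.9 points on chromosome 18 and -18.8 points on chromosome 19 with shUHRF1, and -29.0 and -29.7 points with shDNMT1. At 70% to under 80% it was -21.1 and -20.2 points with shUHRF1, and -34.9 and -36.5 points with shDNMT1. From low to high Baseline windows the loss thus grew by far more with shDNMT1 than the chromosomes differed at either end.

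**Figure D3:**
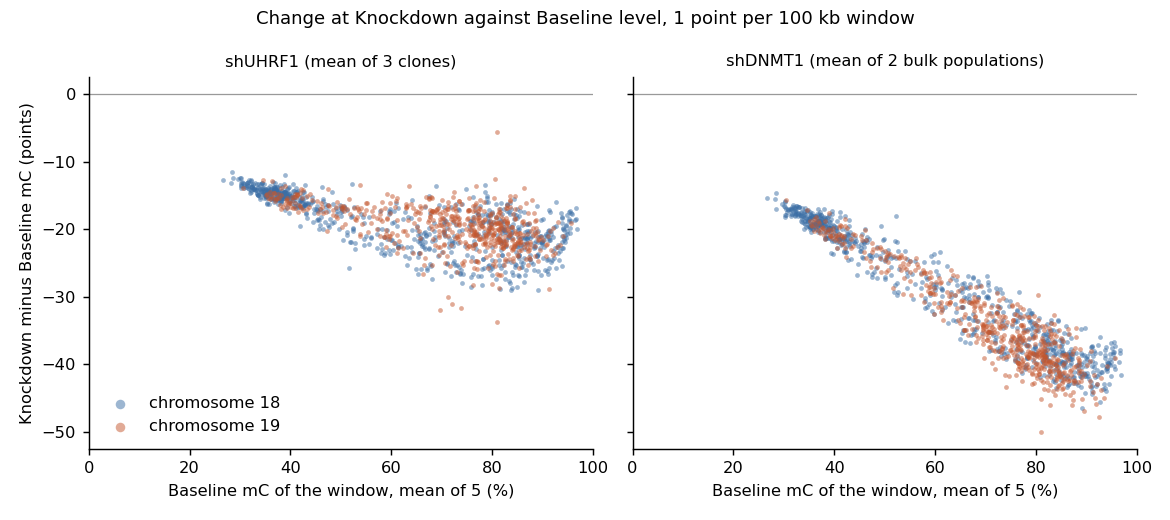
Knockdown minus Baseline mC of each 100 kb window (y axis, points) against its Baseline mC (x axis, percent, mean of 5 populations) for the mean of the 3 shUHRF1 clones and of the 2 shDNMT1 bulk populations. Blue points are the 755 windows of chromosome 18 and orange points the 560 windows of chromosome 19, and the 2 clouds overlap over most of the range, with the steeper fall on the right.

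Windows were also tested singly, on methylated and unmethylated counts, with edgeR's quasi-likelihood test (Benjamini-Hochberg adjusted p under 0.05 over all 28471 windows, with the population as a block). With shUHRF1 at Knockdown 755 of 755 windows of chromosome 18 and 559 of 560 of chromosome 19 were called lower, against a background of 100% (28457 of 28471 windows). With shDNMT1 all 755 and 560 were called lower, against a background of 100% (28461 windows). A count so near the background says nothing about these chromosomes in particular. The window that was not called with shUHRF1 is the last of chromosome 19 (chr19:58600001-58700000, ended early by the end of the chromosome), which holds 191 CpGs and as few as 50 reads. Its mean change was -5.64 ± 18.4 points (n = 3), within the spread between clones.

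At Recovery 752 windows of chromosome 18 and 559 of chromosome 19 were still lower than Baseline in the clones, against a background of 99.4%. Without the population block these counts were 455 (60.3%) and 372 (66.4%), against 66.8% of all windows. In the bulk populations edgeR called 0 windows lower or higher on either chromosome, against a background of 0.00351% lower. At an unadjusted p under 0.05 it had 0 windows of chromosome 18 and 1 of chromosome 19, and limma called 0 and 1. Over all 28471 windows edgeR had 27 at that unadjusted p, and 1141 without Cl.9. The fit shares 1 spread over clones and bulk populations, so 0 calls do not mean a full return to Baseline. Over whole chromosomes R1 and R2 stood -0.549 and -0.589 points from Baseline on chromosome 18, and -0.939 and -0.959 points on chromosome 19.

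The difference between the shRNAs was then tested window by window. The odds of methylation fell less with shUHRF1 than with shDNMT1 in 324 of 755 windows of chromosome 18 (42.9%) and in 415 of 560 windows of chromosome 19 (74.1%), against a background of 64.1%. All called windows lay in this direction. The median difference was 0.50 on the log2 odds scale on chromosome 18 and 0.91 on chromosome 19. The medians without Cl.3 were 0.26 and 0.70, and without Cl.9 they were 0.83 and 1.12, so chromosome 19 kept the larger one. The calls, unlike the medians, were lost without the block or without either bulk population. Without the block edgeR called 0 windows on either chromosome, with 47 and 114 at an unadjusted p under 0.05 and medians of 0.51 and 0.92. Without R1 or without R2 it also called 0, with 214 and 323 and with 171 and 285 at an unadjusted p under 0.05, and medians of 0.52 and 0.95 and of 0.49 and 0.87. Those fits assume that the lone bulk population varies like the clones. With all populations limma called 331 and 411. Leaving out Cl.9 gave 686 (90.9%) and 554 (98.9%) windows against 95.4% of all windows, and leaving out Cl.6 gave 201 (26.6%) and 302 (53.9%) against 43.2%.

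The calls were then set out by class of window. By number of coding genes the chromosomes stood closer than as wholes. Of windows with no coding gene 13.0% were called on chromosome 18 (331 windows) and 11.5% on chromosome 19 (52 windows). With 1 or 2 coding genes the shares were 64.0% (394 windows) and 62.4% (181 windows), and with 3 or more they were 96.7% (30 windows) and 90.5% (327 windows). Windows without a coding gene made up 43.8% of chromosome 18 and 9.29% of chromosome 19. Of windows with a Baseline under 50% none was called on either chromosome, and at 80% or more 99.1% and 99.5% were. In between they stood further apart, since at 50% to under 70% the calls were 10.7% of 122 windows on chromosome 18 and 50% of 132 on chromosome 19. There a window of chromosome 19 held more CpGs (median 1426 against 738) and hence more reads, and its mean change with shUHRF1 was -18.8 points against -20.9 points. By CpG number the order depended on the bin. Chromosome 18 had the larger share from 500 to under 1500 CpGs. At 500 to under 750 CpGs it was 16.6% of 314 windows against 6.67% of 15 on chromosome 19. At 750 to under 1000 CpGs 51.2% of windows were called on chromosome 18 and 18.3% on chromosome 19, and at 1000 to under 1500 76.7% and 51.1%. Chromosome 19 had the larger share at 1500 to under 2000 CpGs, 87.0% of 115 windows against 80.4% of 46, and at 2000 to under 3000, 99.5% of 198 against 66.7% of 12. At 3000 or more CpGs it was 100% of 38 against 75% of 4. Under 500 CpGs 1 of 3 windows of chromosome 19 and 1 of 31 of chromosome 18 were called. The part of depth in these shares was not tested.

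The next comparison put windows of like CpG number side by side, with equal weight per window. Windows with 1000 to under 1500 CpGs were 176 on chromosome 18 and 131 on chromosome 19. At Baseline they stood at 77.0%, 77.8%, 73.7%, 76.3% and 76.1% on chromosome 18 and at 65.5%, 66.0%, 60.0%, 64.6% and 64.5% on chromosome 19, in the order Cl.3, Cl.6, Cl.9, R1 and R2. In this bin chromosome 19 was thus the lower one, the opposite of the chromosomes as wholes. At 1500 to under 2000 CpGs they stood close, for example at 78.8% and 78.0% in Cl.3. At 750 to under 1000 CpGs, with 172 and 60 windows, the Cl.3 values were 66.7% and 53.4%. At 2000 to under 3000 CpGs, with only 12 windows of chromosome 18 against 198, chromosome 19 was higher in each population, for example at 79.5% against 74.9% in Cl.3. At 3000 or more CpGs, with 4 windows of chromosome 18 and 38 of chromosome 19, chromosome 18 was higher in each population, at 86.2% against 76.1% in Cl.3.

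The change at Knockdown also differed from that over all windows with shDNMT1. In windows of 1000 to under 1500 CpGs it was -34.6 and -35.4 points on chromosome 18 in R1 and R2, and -29.95 and -30.7 points on chromosome 19. Chromosome 19 changed by 3.19 ± 0.00451 points less in the bulk populations (n = 2, exact sign-flip permutation p = 0.5). This is the average over the 3 bins that held at least 20 windows of both chromosomes. Over all windows chromosome 19 changed by more instead, with a difference of -4.56 points at equal weight per window and -4.76 points with reads pooled. The bins did not share 1 direction, because at 1500 to under 2000 CpGs the change was -34.8 and -35.7 points on chromosome 18 and -35.4 and -36.5 points on chromosome 19. At 2000 to under 3000 CpGs, a bin left out of the average for its 12 windows of chromosome 18, it was -32.4 and -34.8 points against -37.5 and -38.5 points. In percent of Baseline, chromosome 19 lost the larger share in each population in each of the 3 averaged bins. At 1000 to under 1500 CpGs that change was -45.3% on chromosome 18 and -46.3% on chromosome 19 in R1, and -39.3% and -44.2% in Cl.9. At 2000 to under 3000 CpGs chromosome 18 lost the larger share in each clone and chromosome 19 in R1 and R2. With shUHRF1 the like-number difference was 0.674 ± 0.886 points (n = 3, exact sign-flip permutation p = 0.25), which is within the spread between clones, and 0.165 points without Cl.9.

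Distance between CpGs gave another view. On chromosome 18 CpGs with a neighbour under 10 bp away changed by -8.55, -14.1 and -19.9 points in the clones, and those with the nearest at 20 to 34 bp by -14.4, -21.9 and -32.2 points. On chromosome 19 the same classes changed by -7.46, -12.9 and -16.9 points and by -16.3, -24.3 and -36.8 points. In each clone the gap in points between the crowded and the spaced class was therefore wider on chromosome 19. Their Baselines differed too, since in each population the spaced class started higher on chromosome 19 and the crowded class lower. In Cl.3 the spaced class stood at 69.7% on chromosome 18 and 78.2% on chromosome 19, and the crowded class at 77.0% and 73.1%. The part of starting level in the gap was not tested. With shDNMT1 the crowded class changed by -27.7 and -29.1 points on chromosome 18 and by -29.2 and -30.5 points on chromosome 19, and the class at 20 to 34 bp by -33.9 and -34.6 and by -40.1 and -41.1 points. Chromosome 19 lost more in R1 and R2 in each of the 5 spacing classes.

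Solo-WCGW CpGs were the least methylated class at Baseline. They stood at 47.7%, 50.4%, 45.9%, 47.5% and 47.4% on chromosome 18 (97807 CpGs) and at 57.5%, 58.9%, 54.5%, 57.1% and 57.0% on chromosome 19 (55241 CpGs). At Knockdown they changed by -14.3, -20.5 and -27.8 points in the clones on chromosome 18 and by -17.3, -24.7 and -33.9 points on chromosome 19. With shDNMT1 the change was -25.8 and -26.2 points on chromosome 18 and -32.0 and -32.2 points on chromosome 19. Chromosome 19 thus both started higher and lost more at these CpGs in each population.

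**Figure D4:**
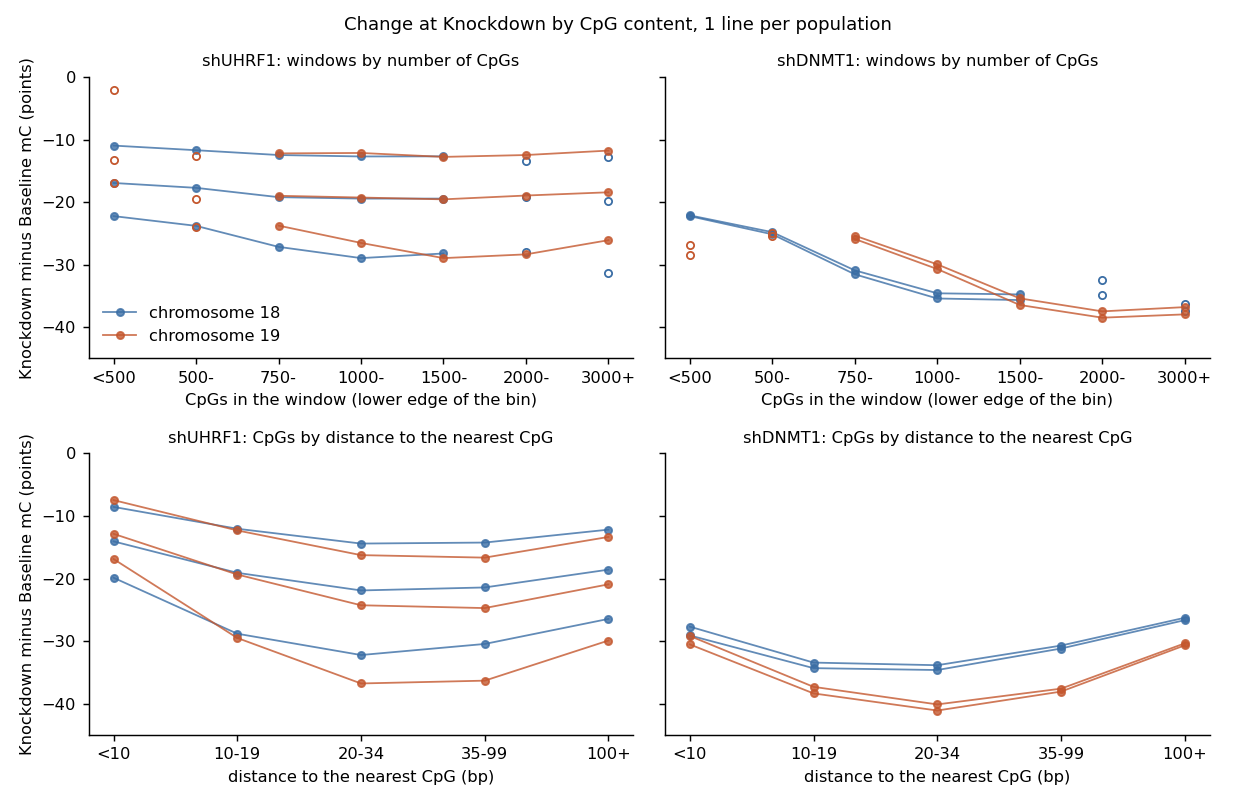
Knockdown minus Baseline mC (y axis, points) for windows grouped by their number of CpGs (upper panels) and for CpGs grouped by distance to the nearest CpG in bp (lower panels), with 1 line per population, chromosome 18 in blue and chromosome 19 in orange. Open symbols are bins of under 20 windows, and in the lower right panel the orange lines lie below the blue ones in each class.

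Spacing was also compared at CpGs with a Baseline mC of at least 0.85 and at least 5 reads at Baseline and Knockdown. They counted as hypomethylated where the fall in mC was at least 0.3. The same Baseline reads chose these CpGs and entered the fall, so counting error can add to it. That part can differ between chromosomes and spacing classes and was not tested. Such highly methylated CpGs were 56.2 ± 1.11% of covered CpGs on chromosome 18 and 67.6 ± 1.41% on chromosome 19 in the clones. The clones had 23.9%, 39.5% and 69.4% of low-density CpGs and 10.9%, 20.3% and 42.1% of high-density CpGs hypomethylated on chromosome 18. On chromosome 19 these shares were 25.8%, 42.3% and 73.2% at low and 10.9%, 19.8% and 43.4% at high density. In the bulk populations they were 85.5% and 86.4% at low and 67.0% and 68.8% at high density on chromosome 18, and 89.5% and 90.6% at low and 76.4% and 78.7% at high density on chromosome 19. The largest rise from chromosome 18 to chromosome 19 was thus that of high-density CpGs with shDNMT1, 9.68 ± 0.384 points (SD, n = 2).

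A density preference was taken as the difference in mean fall between low- and high-density CpGs over the mean fall of all highly methylated CpGs, so that 0 means no preference. It was 0.488, 0.415 and 0.399 on chromosome 18 and 0.593, 0.525 and 0.457 on chromosome 19 in the clones. With shDNMT1 it was 0.211 and 0.203 on chromosome 18 and 0.151 and 0.139 on chromosome 19. The preference for spaced CpGs was thus higher on chromosome 19 in each clone, by 0.0911 ± 0.0287 (n = 3, exact sign-flip permutation p = 0.25), and lower there in each bulk population, with a mean difference of -0.0618 ± 0.00258 (n = 2, exact sign-flip permutation p = 0.5).

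Domains were taken from the lists the authors called in each library. At Baseline HMDs covered 33.3% to 38.4% of chromosome 18 and 53.8% to 58.3% of chromosome 19 in the 5 populations. PMDs covered 59.3% to 65.3% of chromosome 18 and 33.2% to 41.0% of chromosome 19 in Cl.3, Cl.6, R1 and R2, and 30.7% and 22.3% in Cl.9, whose PMD calls stand apart. At Knockdown HMDs covered 18.9% of chromosome 18 and 34.4% of chromosome 19 in Cl.3, 5.72% and 11.3% in Cl.6, and 0.00474% and 0% in Cl.9. R1 and R2 had 0% of chromosome 18 and at most 0.0113% of chromosome 19 in HMDs. Unmethylated regions covered 15.75%, 15.9%, 23.52%, 18.08% and 18.01% of chromosome 18 at Baseline. On chromosome 19 they covered 8.497%, 8.721%, 12.16%, 9.412% and 9.227%. At Knockdown they covered 33.1%, 39.1%, 57.0%, 61.1% and 61.2% of chromosome 18 and 17.1%, 23.2%, 41.8%, 52.5% and 56.0% of chromosome 19. They thus covered less of chromosome 19 in each population at both stages. From Baseline to Knockdown their cover rose by less on chromosome 19 in each clone, but not in R1 or R2. These lists were called separately in each library and an HMD needs a minimum mean mC, so the covered length moves with the calling and falls when the level falls.

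In windows with at least 50% of their length in Baseline HMDs, chromosome 18 was the higher one at Baseline, at 85.7%, 86.8%, 83.2%, 84.9% and 85.0% against 80.2%, 81.6%, 76.2%, 78.6% and 78.3% on chromosome 19. These were 279 to 317 windows of chromosome 18 and 347 to 373 of chromosome 19. Values of HMD and PMD windows are means with equal weight per window unless stated. The change at Knockdown differed by 0.957 ± 0.764 points in the clones (chromosome 19 lost less in 3 of 3) and by 0.411 ± 0.0200 points in the bulk populations. When 90% of a window had to be HMD these values were 0.156 ± 0.218 and -1.05 points, and with reads pooled the bulk value was 0.00404 ± 0.00933 points. Without Cl.9 the clones differed by 0.520 points, so neither difference was firm. HMD windows of chromosome 18 regained more in the clones, 51.6%, 54.5% and 45.3% against 48.8%, 48.2% and 40.3% on chromosome 19, which is the reverse of the order over all windows.

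In Baseline PMD windows the clones changed by -11.6, -17.8 and -28.7 points on chromosome 18 and by -12.0, -19.3 and -25.0 points on chromosome 19. The difference was 0.599 ± 2.73 points (n = 3, exact sign-flip permutation p = 1) and -0.940 points without Cl.9, so no direction held. With shDNMT1 the change was -24.1 and -24.4 points on chromosome 18 and -27.2 and -27.5 points on chromosome 19, a difference of -3.07 ± 0.0474 points. When 90% of a window had to be PMD, the difference was 1.48 ± 4.26 points with shUHRF1 and -1.92 ± 0.0163 points with shDNMT1. The PMD windows of chromosome 18 were at 49.2% and 49.1% in these populations at Baseline and those of chromosome 19 at 56.9% and 56.2%. In the clones PMD windows regained 17.2% to 27.3% on chromosome 18 and 16.2% to 28.2% on chromosome 19, less than HMD windows in each clone.

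Along the chromosomes, stretches of 10 Mb were uneven on chromosome 19. From 20 to 30 Mb, around its centromere, 75 windows had a mean Baseline of 50.3%, 57.3% of them were under 50%, and they changed by -17.1 points with shUHRF1 and -24.3 points with shDNMT1. Here 42 coding genes start, against 292 from 0 to 10 Mb, where 98 windows had a mean Baseline of 78.2% and changed by -20.3 and -38.6 points. Of the windows of the former stretch 13.3% were called in the comparison between the shRNAs, and of the latter 97.96%, against 74.1% of the chromosome and a background of 64.1%. On chromosome 18 the 8 stretches up to 80 Mb lay between 55.6% and 70.9% at Baseline, and 29.0% to 49.0% of their windows were called, against 42.9% of the chromosome. The pericentromeric stretch of chromosome 19 was therefore lower in level than any of these stretches of chromosome 18.

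Genes of known role were followed through the window that holds their 5′ end. On chromosome 18 these were 16 genes in 15 windows, since MBD1 and CXXC1, which encode proteins that bind methylated and unmethylated CpGs, share chr18:50200001-50300000. Their windows changed by -26.3 to -13.8 points with shUHRF1 (median -18.8) and by -43.3 to -17.9 points with shDNMT1 (median -33.2), against -18.6 and -29.9 points as the median of the mean change over all windows of the chromosome. The difference between the shRNAs was called for 11 of the 16 genes, the shared window counted for both, against 42.9% of all windows of the chromosome and a background of 64.1%. A window holds far more than a promoter, so its level is not that of the gene's regulatory region.

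The windows of SMAD2, SMAD4 and SMAD7, which carry TGF-β signals or block them, had Baseline means of 79.8%, 81.8% and 70.8%. The SMAD4 window (chr18:51000001-51100000) was changed by -18.7 ± 5.92 points with shUHRF1 (n = 3) and by -36.7 ± 1.25 points with shDNMT1 (n = 2), and the difference between shRNAs was 1.07 on the log2 odds scale (edgeR adjusted p = 0.00213). The SMAD2 and SMAD7 windows changed by -19.3 and -18.8 points with shUHRF1 and by -37.7 and -35.2 points with shDNMT1. The windows of DCC, a netrin receptor gene, of TCF4, a transcription factor gene, and of SETBP1 started low instead, at 37.3%, 38.3% and 38.0%. They changed by -13.8, -14.6 and -14.3 points with shUHRF1 and by -17.9, -18.6 and -19.3 points with shDNMT1. The difference between shRNAs was not called for any of these 3, nor for SALL3 and CDH2, with edgeR adjusted p of 0.439, 0.458, 0.346, 0.0527 and 0.386.

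The MC4R window (chr18:60300001-60400000), which holds a melanocortin receptor gene, has only 532 CpGs and a Baseline of 89.0%, and lost the most of the 15, -26.3 ± 10.5 points with shUHRF1 and -43.3 ± 0.00292 points with shDNMT1. The latter SD comes from 2 populations that happened to match and is not the precision of the window, which had 6601 to 11330 reads per library. The windows of BCL2, an inhibitor of cell death, TYMS, which makes thymidylate, MBD2, GATA6 and NFATC1 had Baseline means of 75.8% to 82.3%. They changed by -20.0 to -18.2 points with shUHRF1 and by -38.5 to -32.5 points with shDNMT1, and each was called in the comparison between the shRNAs.

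On chromosome 19 the 12 landmark windows changed by -24.8 to -14.8 points with shUHRF1 (median -18.3) and by -45.1 to -19.7 points with shDNMT1 (median -37.0), against -19.3 and -35.5 points over all windows of the chromosome. The difference between shRNAs was called for 10 of the 12, against 74.1% of all windows of the chromosome and a background of 64.1%. The targets themselves lie here. The UHRF1 window (chr19:4900001-5000000) had a Baseline of 82.3% and changed by -21.8 ± 9.48 points with shUHRF1 and by -43.9 ± 0.534 points with shDNMT1. The DNMT1 window (chr19:10200001-10300000) had a Baseline of 73.0% and changed by -18.1 ± 6.72 and -36.6 ± 0.188 points. Both passed the test of the difference, with edgeR adjusted p of 0.000158 and 0.00051.

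The windows of STK11, SMARCA4 and KEAP1, tumour suppressor genes, had a Baseline of 73.3%, 82.8% and 71.8%. They changed by -18.3, -19.1 and -18.0 points with shUHRF1 and by -37.6, -40.5 and -36.8 points with shDNMT1. The NOTCH3 window lost the most of the 12, from 89.0%, by -24.8 ± 10.4 and -45.1 ± 0.490 points. The windows of the imprinted genes PEG3 and ZNF331 had the lowest Baseline of the 12, 40.9% and 59.2%, and changed by -14.8 and -18.3 points with shUHRF1 and by -19.7 and -27.0 points with shDNMT1. Neither was called in the comparison between the shRNAs (edgeR adjusted p of 0.336 and 0.1), and the 3 least methylated landmark windows of chromosome 18 were not called either. At Recovery the windows of the 12 genes stood -14.5 to -9.00 points from Baseline in the clones and -3.31 to -0.241 points from it in the bulk populations.

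Gene families that lie in clusters were described by all windows their genes touch. Here the median over windows was taken in each population and then averaged over the populations of an shRNA. Each family window was called lower at Knockdown with either shRNA, as were nearly all windows of both chromosomes. On chromosome 18 the desmosomal cadherins DSC and DSG, which hold epithelial cells together, touched 6 windows with a median Baseline of 83.8% to 85.5%, and these changed by a median of -19.1 ± 8.28 points with shUHRF1 and -37.7 ± 0.131 points with shDNMT1. The type II cadherins CDH7, CDH19 and CDH20 touched 7 windows at 36.7% to 47.2%, which changed by -16.5 ± 5.05 and -21.0 ± 0.661 points. In the comparison between the shRNAs all 6 of the former and 0 of the latter windows were called, against 42.9% of the chromosome and a background of 64.1%. The protease inhibitors of the SERPINB family touched 7 windows, which changed by -24.0 ± 10.6 and -37.7 ± 1.28 points, and 5 were called.

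On chromosome 19 the 249 ZNF genes, which encode zinc finger proteins and many of which silence transposons, touched 156 windows with a median of 1349 CpGs, against 1804 over the chromosome. Their median Baseline was 62.5% to 70.8%, below the 72.0% to 77.6% of all windows of the chromosome in each population. They changed by a median of -17.6 ± 6.32 points with shUHRF1 and -30.4 ± 0.707 points with shDNMT1, against -19.5 ± 7.67 and -35.5 ± 0.581 points over all windows, and 92 of the 156 (59.0%) were called in the comparison between the shRNAs, against 74.1% of the chromosome and a background of 64.1%. The windows of the immunoglobulin-like receptors KIR and LILR were lower still, at 53.2% to 58.9% over 6 windows, and changed by -20.0 ± 7.26 and -28.4 ± 1.51 points.

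The adhesion and pregnancy-specific glycoproteins CEACAM and PSG touched 15 windows at 69.7% to 73.6%. They changed by -24.2 ± 9.47 points with shUHRF1, the largest mean of the chromosome 19 families followed here, although in Cl.3 their -14.9 points were less than the -15.9 points of KLK, and by -39.2 ± 0.988 points with shDNMT1. The drug-metabolising cytochromes of CYP2 and CYP4F (9 windows) changed by -23.4 ± 9.87 and -38.2 ± 1.41 points, and the kallikrein proteases KLK (3 windows) by -22.9 ± 7.64 and -36.7 ± 0.512 points. NLRP, SIGLEC and olfactory receptor (OR) windows, with inflammasome, sialic acid binding and odour receptor genes, lay between -21.9 and -20.6 points with shUHRF1 and between -35.9 and -33.98 points with shDNMT1. The differences between families, which share the same clones, were not tested. Some lists share windows, such as CYP2 and CYP4F with OR (2 windows) and CEACAM and PSG with SIGLEC (1 window). In clustered families near-identical copies can share reads, so their levels are less certain.

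**Figure D5:**
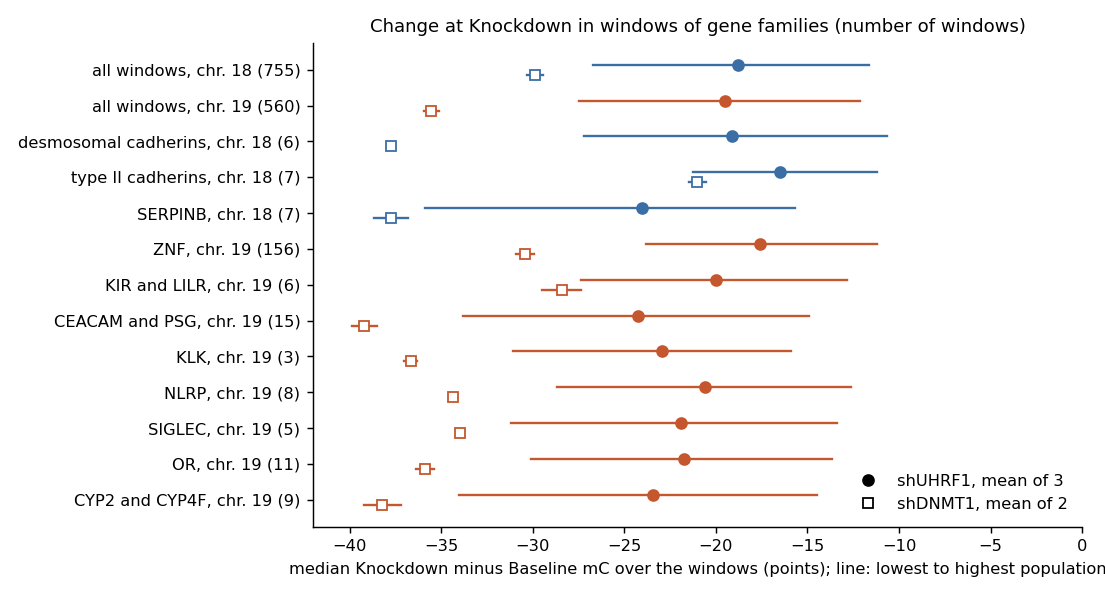
Median Knockdown minus Baseline mC (x axis, points) over the windows of each gene family and over all windows of its chromosome (rows, with the number of windows). Filled circles are the mean of the 3 shUHRF1 clones and open squares the mean of the 2 shDNMT1 populations, lines run from the lowest to the highest population, and the type II cadherins of chromosome 18 have the smallest loss of the families with either shRNA.

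The windows at the ends of the range were chosen by their mean change with shUHRF1 and are therefore only described. The 3 largest losses of chromosome 19 were adjacent windows of the PSG genes, from chr19:42800001-42900000 to chr19:43000001-43100000. The first, with PSG1, went from 82.4%, 78.2% and 78.8% at Baseline to 61.7%, 43.3% and 33.2% at Knockdown in the clones and then to 69.0%, 50.6% and 39.7% at Recovery. In the bulk populations it went from 82.9% and 82.5% to 40.8% and 40.0% and back to 81.1% and 81.2%. Each clone stayed below its Baseline, Cl.6 and Cl.9 by the most, while both bulk populations returned close to theirs. On chromosome 18 the largest loss was in chr18:63700001-63800000, with SERPINB7 and SERPINB11, from 83.6%, 86.4% and 80.6% to 63.4%, 62.6% and 37.5% in the clones and from 84.4% and 83.8% to 42.4% and 40.6% in R1 and R2.

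The smallest losses on chromosome 18 were -11.6, -11.9 and -12.4 points, in windows at a Baseline of 28.4%, 39.0% and 30.2%, the last inside DCC. On chromosome 19 they were -5.64 points in the thinly covered last window, -12.6 points in chr19:58200001-58300000 with ZNF274, ZNF544 and ZNF8, and -12.7 points in a window without coding genes at a Baseline of 34.6%. The ZNF274 window was unlike the low windows, since it started at 82.7%, 83.9% and 77.4% in the clones and still held 75.4%, 71.0% and 59.9% at Knockdown. With shDNMT1 it went from 79.5% and 78.9% to 50.8% and 48.0%.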

How the data were processed

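Whole-genome bisulfite libraries of HCT116 cells were analysed, 15 in all, with 3 clones carrying shUHRF1 and 2 bulk cultures carrying shDNMT1, each at 3 stages. The authors aligned their reads, per the methods of the study, to hg38 with the Meth10X pipeline, and the deposited counts are methylated reads and all reads at each CpG. How duplicates and variants were handled is not given in the sources used here. Domain lists were called by the authors with MethylSeekR, and HMDs were derived with bedtools 2.25.0, the version in the submitters' processing notes. Of 30 count columns 0 were left unused.

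Counts were summed in windows of 100 kb, kept at 5 or more CpGs and 50 or more reads in every library. Sums, spacing of CpGs and exact tests used Python 3.11.15, NumPy 2.4.6, pandas 2.3.3 and SciPy 1.17.1. Window tests used edgeR 4.0.16 in R 4.3.3 on methylated and unmethylated counts over 28471 windows, with the population as a block and Benjamini-Hochberg adjustment, and limma 3.58.1 on log2 odds with 1 added to each count as an alternative. Populations were the replicates, never windows or CpGs. The labels do not say that R1 and R2 came from separate infections, so their spread may be technical. An SD of only 2 populations can also be small by coincidence, so it does not measure precision. The smallest two-sided exact p is 0.0625 for 5 populations, 0.25 for 3, 0.5 for 2 and 0.2 for 3 against 2.

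The block pairs the stages of the same population. Deviations of window mC from the stage mean correlated between stages at 0.478 to 0.823 in the clones. In the bulk populations they did so at 0.0295 between Baseline and Knockdown and 0.0798 between Baseline and Recovery. R1 and R2 give the same values, because deviations from a mean of 2 mirror each other. Pairing was thus weak in the bulk populations, although the block was applied to all. No 2 libraries of a group were alike within sampling noise, since chi-square per window was 4.44 to 9.62 between R1 and R2 and at least 24.9 between clones. On simulated data for the shUHRF1 Knockdown contrast (5000 windows, 200 of them changed) edgeR recovered 95.5% with 5.91% false calls and limma 94.0% with 6.00%. The simulated populations shared a Baseline and a spread, and changed windows moved equally in each clone. In the real data nearly all windows fell and the clones differed, so these rates do not describe the tests above.

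Named windows hold the 5′ end of listed genes, overlap listed gene families, or are the 3 with the largest and the 3 with the smallest mean shUHRF1 change on each chromosome. The sites shown with sequence are, per chromosome, the solo-WCGW CpG with the most reads in its thinnest library and the CpG with the most neighbours within 14 bp, among CpGs at 0.85 or more at Baseline in each population. The windows, lists and tests were chosen with earlier results of these data known. Alternatives were equal weight per window, CpGs with 5 or more reads in all libraries, stricter window minimums, other domain shares, other CpG bins, other density settings, no block, limma and leaving out each population.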

Additional observations from a re-analysis of the deposited data

Results flagged for a closer look

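Measures in which each population of one shRNA moved the opposite way from each population of the other were singled out, and the difference between the shRNAs was not tested for them. The relative loss on chromosome 19 minus that on chromosome 18 was -2.471 points with shUHRF1 and 2.425 points with shDNMT1. The regained share differed by 3.161 points with shUHRF1 and by -0.8335 points with shDNMT1, the latter near 0 when windows had equal weight. The density preference differed by 0.09112 with shUHRF1 and by -0.06178 with shDNMT1. The shRNAs also differed window by window in the test of the difference itself, in 324 windows of chromosome 18 and 415 of chromosome 19 (edgeR adjusted p under 0.05), against 64.1% of all windows. Without the population block, without R1 or without R2 the count was 0 on both chromosomes, with 47 to 214 windows of chromosome 18 and 114 to 323 of chromosome 19 at an unadjusted p under 0.05. Among 5 values over the 5 populations no population stood apart by Dixon's criterion of 0.71.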

How the results depend on the processing

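Of 199 alternative values for the comparisons, 186 were kept, 11 moved and 2 reversed. Counts of windows were kept when within 1.5 times of the main count, and differences between chromosomes were judged by direction only. Kept values can therefore be much smaller. With shDNMT1 the HMD difference of 0.411 points was 0.00404 points with reads pooled. The difference in regained share went from -0.8335 to -0.0821 points with equal weight per window. The change of HMD windows on chromosome 19 minus chromosome 18 with shDNMT1 reversed from 0.411 to -1.05 points at a domain share of 90%, and that of PMD windows with shUHRF1 from 0.599 to -0.940 points without Cl.9, with 1.652 points without Cl.6. Without the replicate block that pairs stages of a population, windows called at shUHRF1 Recovery fell to 455 on chromosome 18 and 372 on chromosome 19, and those called between the shRNAs to 0 and 0 (47 and 114 at an unadjusted p under 0.05 in edgeR). The other counts without the block stayed within 1.5 times. With limma 1 window of chromosome 19 was called at shDNMT1 Recovery, against 0 in edgeR. Leaving out 1 population gave 0 to 686 windows of chromosome 18 and 0 to 554 of chromosome 19 between the shRNAs, with 0 on both without R1 or without R2. The cause was not tested. For windows and families named in the text, alternatives chosen after seeing the data gave 273 values, of which 18 moved by more than the spread between populations and 0 reversed. With shDNMT1 that spread rests on 2 populations.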
